A study of Mus musculus with 12 samples.

Results

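The mouse genes analysed here were the replication-dependent histone genes, taken as every gene whose name in the deposited gene models began with Hist1h, Hist2h, Hist3h or Hist4h. The rule found 67 genes among 35984, and 64 of the 67 carried a protein identifier, as did 22557 genes in all. The models accompanied RNA-seq of nucleus accumbens (NAc), a brain reward region, from C57BL/6 mice of 8 to 10 weeks, each library being a pool of 3 to 5 animals by the labels. The 4 treatments had 3 pools each: repeated cocaine (7 daily intraperitoneal injections of 20 mg/kg), repeated saline, acute cocaine (6 days of saline, then 1 injection of 20 mg/kg) and its own saline group, and tissue was taken 24 h after the last injection. The labels name no transgene and no difference in genotype between groups. The study asked how cocaine changes transcription and splicing in NAc. The models are 1 set that is not divided by pool or treatment, and they hold exon positions with no level per pool. Depth therefore cannot be read from them, the labelled tissue could not be checked against markers, and no test between treatments was made. Every transcript in the models is marked as matching a reference transcript. A model alone therefore does not show that its transcript was present in these pools.

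Replication-dependent histone genes supply the core histones H2A, H2B, H3 and H4 and the linker histone H1 that package new DNA during S phase. Their mRNAs are a known exception among the mRNAs of animals: most lack introns and end not in a poly(A) tail but in a short stem-loop, which is bound by the stem-loop binding protein (SLBP). Replication-independent histone variants, by contrast, are made from ordinary polyadenylated mRNAs, also in cells that no longer divide. The libraries of this study were selected on poly(A), so the annotated 3′ ends bear on what they could hold.

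The genes were first searched for the stem-loop, taken as 6 paired bases that begin with GG and end with CC around a loop of 4 bases (pyrimidine, T, pyrimidine, any base), on the mm9 genome. Sites of 6 genes are shown because they span the variants found, each with 5 bases on either side in lower case and the stem and loop in capitals.
Hist1h2bq (chr13:21901610-21901635, - strand): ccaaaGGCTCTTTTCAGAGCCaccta
Hist1h1t (chr13:23788389-23788414, + strand): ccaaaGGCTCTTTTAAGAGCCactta
Hist2h2ac (chr3:96024336-96024361, - strand): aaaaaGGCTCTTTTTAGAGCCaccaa
Hist1h4c (chr13:23789953-23789978, - strand): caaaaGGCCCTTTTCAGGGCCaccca
Hist1h4b (chr13:23849230-23849255, + strand): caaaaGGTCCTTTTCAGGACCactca
Hist1h4i (chr13:22132830-22132855, - strand): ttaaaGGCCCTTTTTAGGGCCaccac

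A site was placed in 60 of the 67 genes, and the sequence divided the classes. All 49 sites of H1, H2A, H2B and H3 genes had the same 5′ arm, GGCTCT. None of the 11 H4 sites had it: 9 began with GGCCCT and 2, those of Hist4h4 and Hist1h4b, with GGTCCT. The loop was TTTC in 49 genes, TTTA in 9 and TTTT in 2, the last being Hist2h2ac and Hist1h4i. Bases outside the paired stem were also alike, with AAA just before it in 56 of 60 sites and AC just after it in 50.

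In 59 of 64 genes with a stop codon annotated in GENCODE M1, which uses mm9 too, the stem-loop began within 100 bases after that codon. The share was 0.323% over all coding genes with a stop codon, 70 of 21696, so 11 genes outside the histone list had such a site. Among those 11 were H2afx, the variant that is phosphorylated at DNA breaks, and AC125099.1, a model that GENCODE M1 names Hist2h4. The distance from stop codon to stem-loop ran from 21 to 58 bases in the histone genes, with a median of 30. No site was placed for Hist2h2be, Hist2h2bb, Hist1h2an, Hist1h3g and Hist1h4a, nor for the pseudogenes Hist2h3c2-ps and Hist1h2aj, and allowing 1 unpaired position added none of them. The sequence AAAGA is part of the purine-rich element downstream of many histone stem-loops that pairs with U7 snRNA. It lay in the 30 bases after the site in 18 of 60 genes. Of coding genes, 17.1% had it in the 30 bases after the end of at least 1 transcript.

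Where a model ended relative to its stem-loop differed widely between genes. Of 55 single-exon genes with a site, 16 had models that stopped before the stem-loop was complete, by 9 to 70 bases. Those 16 include Hist1h4k and Hist2h4, the shortest models at 312 bases, whose length is that of their coding sequence and stop codon. A further 9 models ended 3 to 14 bases past the site, close to the end that the mature histone mRNA is known to have, and 16 ended 21 to 100 bases past it. The remaining 14 ran on for 108 to 3050 bases, with a median of 483.5. Hist1h1d, a linker histone gene, was the longest of all at 3821 bases and ended 3050 bases past its stem-loop. Hist1h2ac ended 2010 bases past it, Hist3h2a 1487, Hist2h3c1 1166 and Hist1h1c 839.

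**Figure D1:**
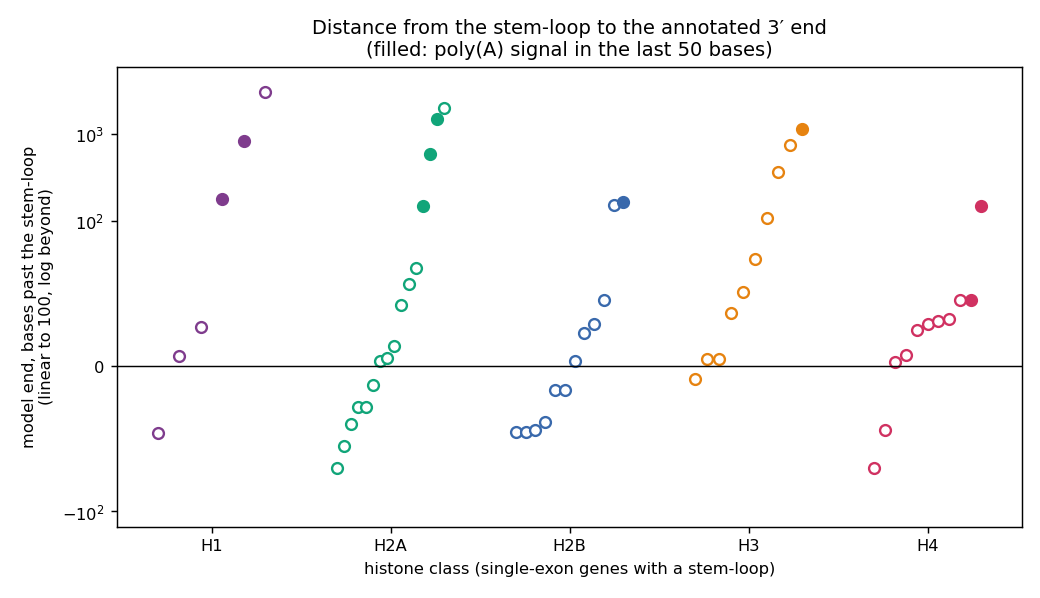
Each point is a single-exon histone gene with a stem-loop, by class on the x axis; the y axis gives the bases from the end of the stem-loop to the 3′ end of the longest model, linear to 100 and logarithmic beyond, and filled points have a poly(A) signal in the last 50 bases. Models below 0 stop before the stem-loop is complete (16 of 55), and none of these is filled. Their last 50 bases hold no sequence past the stem-loop.

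Within 200 bases either side of a transcript end, the stem-loop was present in 48 of 67 histone genes, against 0.377% of coding genes. That share includes coding histone genes, and 38 coding genes outside the histone list had a stem-loop there. By class the histone counts were 4 of 6 H1, 13 of 18 H2A, 13 of 19 H2B, 7 of 12 H3 and 11 of 12 H4 genes. A poly(A) signal, AATAAA or ATTAAA in the last 50 bases of a transcript, was the reverse case, with 16 of 67 histone genes and 71.2% of coding genes. A gene was counted if any of its transcripts qualified, so genes with more transcripts had more ends to search. Of the 67 histone genes, 62 had 1 transcript. H2B genes held 7 of the 16. Among single-exon genes with a site, the signal was in 8 of the 14 models that ran over 100 bases past the stem-loop. Those 8 were Hist2h3c1, Hist3h2ba, Hist3h2a, Hist1h2ai, Hist1h4i, Hist1h2ae, Hist1h1t and Hist1h1c. Of the other 41 models, 1 had the signal. Among these 41, 16 stop before the stem-loop is complete, so their last 50 bases hold no sequence past it. In 9 more, only 3 to 14 bases past it could be searched. The counts therefore depend on where the models end. Hist2h2be and Hist1h4a had a signal and no stem-loop.

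The replication-independent histone genes were taken from a fixed list of 15. A poly(A) signal stood in 12 of the 15, against 71.2% of coding genes. None had a stem-loop within 200 bases of a transcript end, where 0.377% of coding genes did. At so low a share, a list of 15 cannot show a deficit. H2afx had a stem-loop 46 bases after its stop codon, and its model ran 816 bases past it to a poly(A) signal. Exon number varied within the list: 7 of 15 genes, H1f0, H1fx, H1fnt, H2afx, H2afj, H2afb1 and Hils1, had 1 exon, against 12.9% of coding genes. H3f3a and H3f3b, which encode H3.3, had transcripts of 3 to 5 and 3 to 6 exons. H2afz, the H2A.Z gene, had 2 to 5 exons, and H2afy, a macroH2A gene, 3 to 9. Of 12 genes for factors of histone gene transcription and mRNA processing, none had 1 exon only, where 12.9% of coding genes did. Slbp, which encodes the stem-loop binding protein, had 10 transcripts of 2 to 8 exons, Npat, the transcriptional coactivator of histone genes, 3 to 18, and Sympk, the symplekin scaffold of the cleavage complex, 10 transcripts of 3 to 28 exons.

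Single-exon models made up 60 of the 67 histone genes, and 12.9% of coding genes had 1 exon in every transcript. All H1, H3 and H4 genes were single-exon, 6, 12 and 12 in number, as were 17 of 18 H2A and 13 of 19 H2B genes. The longest transcript per gene had a median of 524 bases, against 2392 over coding genes, and the class medians ran from 414.5 bases for H4 to 828.5 for H1. Histone transcripts were rich in G and C, with a median of 59.4% against 49.2% over coding genes.

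The 7 multi-exon genes were Hist1h2aj, a pseudogene, and 6 H2B genes: Hist1h2bp, Hist1h2bq, Hist1h2br, Hist1h2be, Hist1h2bc and Hist2h2bb. Every intron in them began with GT and ended with AG. They fell into different kinds by where the coding sequence and the stem-loop lay.

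In Hist1h2bq and Hist1h2br, the 3 transcripts each all removed the stem-loop with an intron. A 2-exon form of 2121 bases had an intron of 1667 bases, and its coding sequence of 402 bases finished in the second exon. A 3-exon form of 2197 bases coded for 405 bases, also finishing in the second exon, and a further 3-exon form kept the 378 coding bases of an ordinary H2B in exon 1. The last exons ended 3134 to 3334 bases past the stem-loop on the genome, and a poly(A) signal lay at the end of all of these transcripts except the 2015-base form of Hist1h2bq. In Hist1h2bp, 1 transcript was spliced and 1 was not. The single-exon form of 469 bases held the stem-loop in its exon and ended 38 bases past it without a poly(A) signal. The spliced form of 621 bases removed the stem-loop within an intron of 1132 bases, coded for 414 bases and had a poly(A) signal.

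Hist1h2bc differed in that its stop codon lay in exon 1 and only the sequence after it was spliced. Its intron of 7554 bases removed the stem-loop, and the last exon of 313 bases ended with a poly(A) signal 7826 bases past it. Hist1h2be was the mirror case, with a noncoding first exon of 179 or 209 bases and an intron of 34945 or 34949 bases before a second exon that held the whole coding sequence. The stem-loop stayed in that exon, and both transcripts ran 1788 to 1789 bases past it to a poly(A) signal. The far exon lay 630 bases from Hist1h1e, a linker histone gene on the same strand. Hist2h2bb had an intron of 7770 bases inside its coding sequence of 360 bases and neither a stem-loop nor a poly(A) signal. Hist1h2aj had no coding sequence. Its spliced transcript had a 20-base first exon and an intron of 315 bases, and another transcript had 1 exon of 352 bases.

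**Figure D2:**
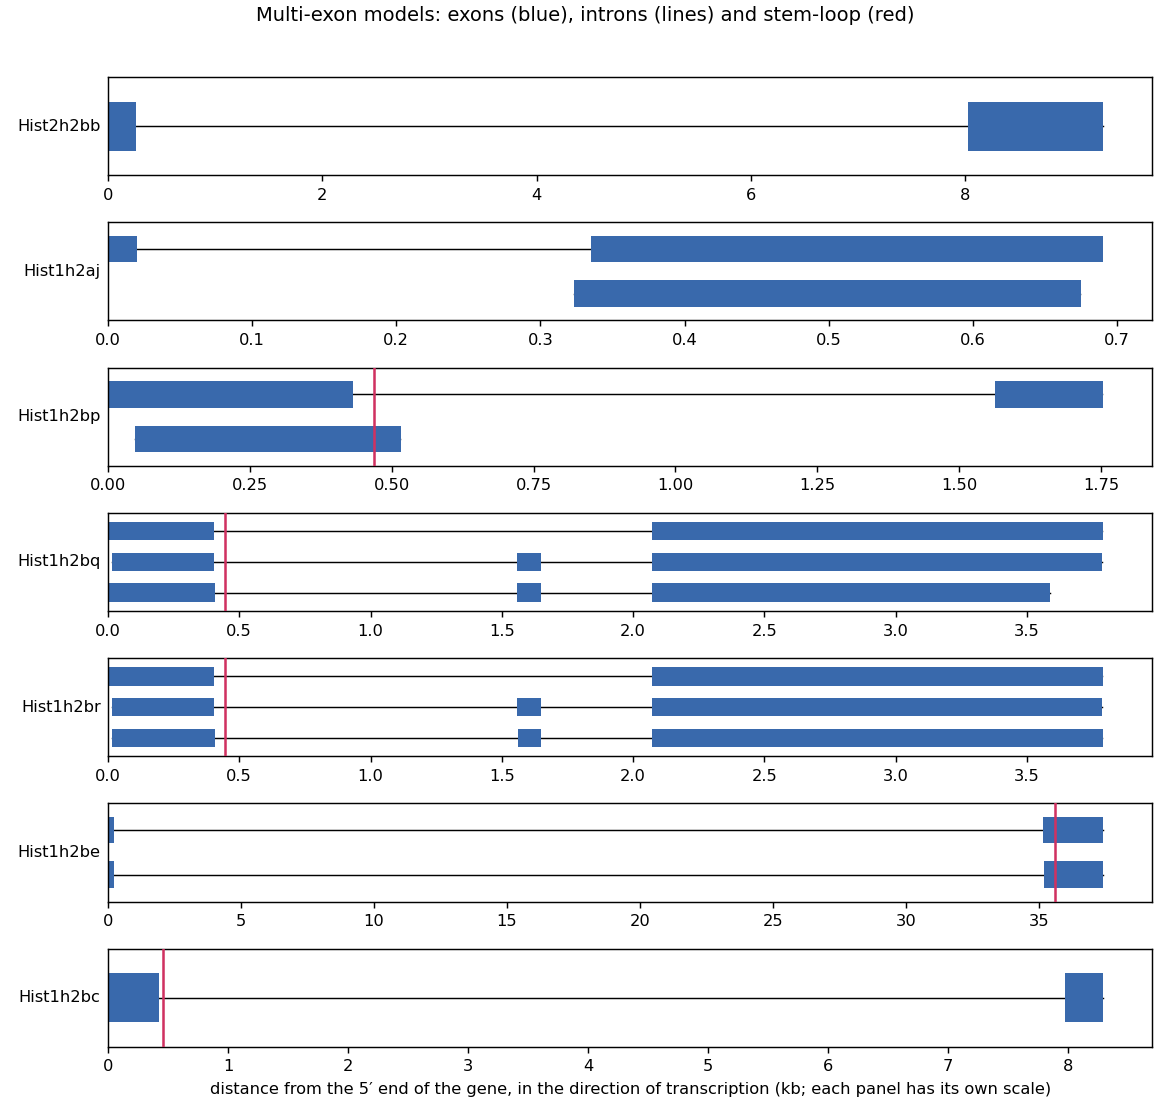
Every transcript of the 7 multi-exon histone genes is drawn from the 5′ end of its gene in kb, each panel on its own scale, with exons as blue bars, introns as lines and the stem-loop as a red line. The stem-loop falls in an intron in all transcripts of Hist1h2bq, Hist1h2br and Hist1h2bc and in 1 of the 2 of Hist1h2bp, and in an exon of Hist1h2be; Hist2h2bb and Hist1h2aj have none.

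With neighbours at most 100 kb apart taken as 1 run, the 67 genes lay in 7 runs, and 55 of them were on chromosome 13. Of the 7 runs, 4 were on that chromosome. The largest spanned 233.4 kb, from Hist1h4h to Hist1h1a (chr13:23622919-23856283), and held 29 genes of all 5 classes, with 5 of the 6 H1 genes. The next, from Hist1h2bl to Hist1h2br (chr13:21807632-21929399), held 19 genes in 121.8 kb, among them Hist1h1b, the remaining H1 gene. A run of 5 genes from Hist1h2ah to Hist1h2bj lay within 8.564 kb (chr13:22126982-22135545), and Hist1h2ba with Hist1h2aa, genes known from testis, lay apart in 1.084 kb (chr13:24025637-24026720). Between the run of 5 and the run of 29 lay 1487.4 kb with 92 other genes, of which 36 were Vmn1r vomeronasal receptor genes.

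Runs on other chromosomes were smaller. On chromosome 3, 8 genes from Hist2h2ab to Hist2h2bb spanned 59.09 kb (chr3:96023839-96082924) and included no H1 gene. On chromosome 11, Hist3h2ba, Hist3h2bb-ps and Hist3h2a spanned 7.764 kb (chr11:58762413-58770176). Hist2h4 lay alone on chromosome 6 (chr6:136752589-136752900), 3868 bases from H2afj. Few other genes lay within the runs, 7 in the run of 29, and 2 of those 7 were coding, including Hfe, the gene of the iron regulator that is mutated in haemochromatosis. Strand changed often along a run, 16 times over the 29 genes and 11 times over the 19.

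**Figure D3:**
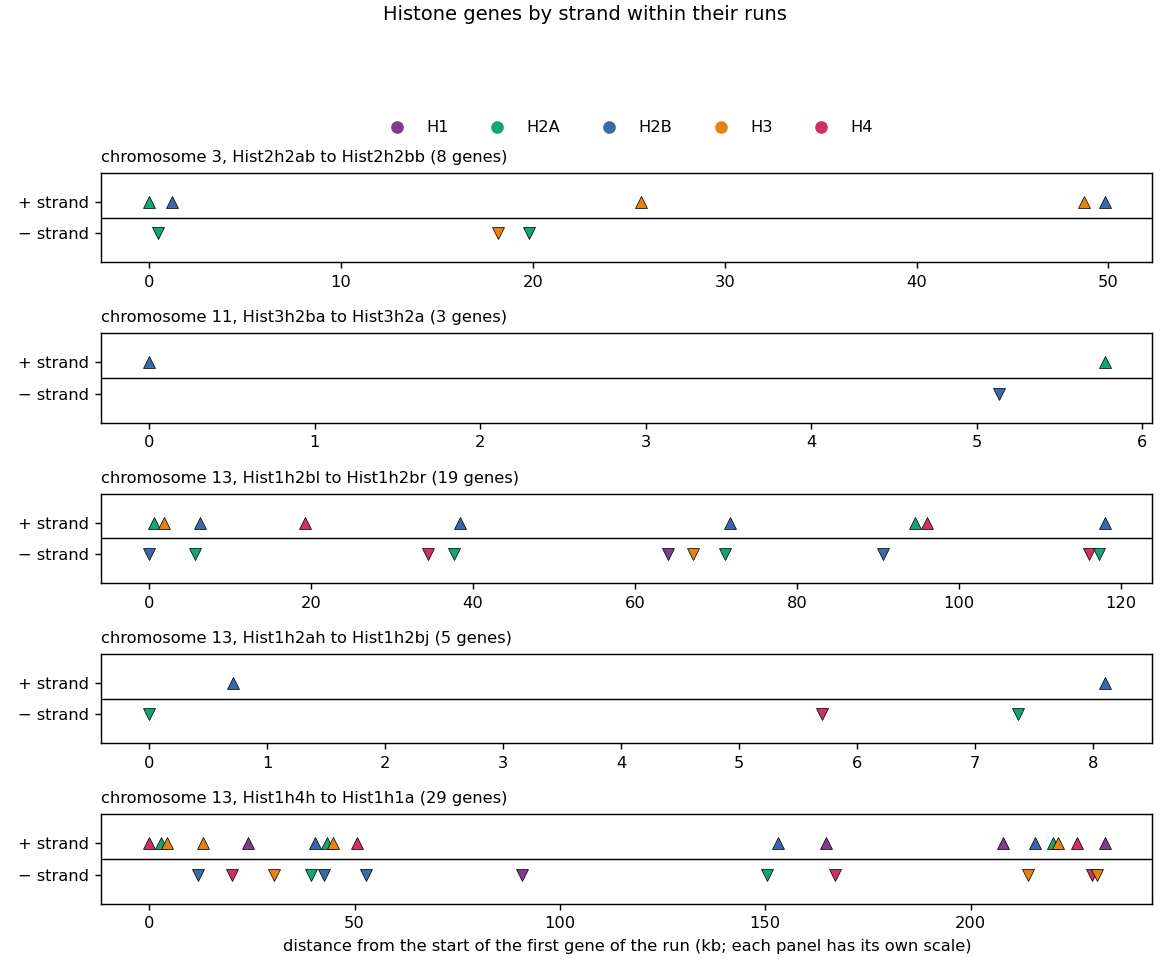
Each triangle is a histone gene placed by its distance in kb from the start of its run, each panel on its own scale, pointing up for the + strand and down for the − strand and coloured by class; the 5 runs of 3 or more genes are drawn. Classes are interleaved in the runs of 29 and 19 genes, and many but not all H2A genes lie beside an H2B gene on the opposite strand.

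Some names in the deposited models differ from GENCODE M1 for transcripts with the same exons, which matters when genes are looked up by symbol. Hist2h4 on chromosome 6 is Hist4h4 in GENCODE M1, and Hist4h4 on chromosome 13 (chr13:21826903-21827329) is Hist1h4j there. Hist1h3c and Hist1h3i carry each other's names. AC160122.2 (chr13:51298057-51298434) is Hist1h2al and was not matched by the rule. Hist2h2aa1 has no model of its own in the file, but the 2955-base model of Hist2h3c1 (chr3:96049477-96052431) overlaps its position (chr3:96049461-96050038) and holds 2 stem-loops.

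Divergent pairs, in which a gene on the − strand and one on the + strand start no more than 1000 bases apart and point away from each other, numbered 14 among the histone genes. They took in 28 of the 67 genes. Counted as for all coding genes, of which 7.03% had a coding partner at this distance, 27 of the 64 coding histone genes had one, a histone gene or another. Of the 14 pairs, 13 joined an H2A gene to an H2B gene and 1 joined Hist1h2bh, an H2B gene, to Hist1h3f, an H3 gene. Thus 13 of 18 H2A and 14 of 19 H2B genes were paired with another histone gene, and no H1 or H4 gene was. The 14 H2B genes include the pseudogene Hist3h2bb-ps, paired with Hist3h2a. Some H4 genes had other partners: Hist1h4d started 135 bases from AC034285.1, a coding gene, and Hist1h4h 106 bases from Gm11335, which has no protein identifier. The 13 H2A and H2B pairs were 167 to 305 bases apart at their annotated starts, with a median of 215, while Hist1h2bh and Hist1h3f were 692 apart. The spacing of all 796 coding pairs had a median of 140 bases. Some paired models, those of Hist1h2bl, Hist1h2bn, Hist1h2an and Hist1h2aa, hold only the coding sequence and stop codon. Their annotated start is the start codon, so the spacings need not be those of transcription starts. Hist1h2aj and Hist1h2bm, another H2A and H2B pair, overlapped at their starts by 88 bases and were not counted. That overlap came from the spliced transcript of Hist1h2aj. Counted from the start of any transcript, histone pairs numbered 15. On chromosome 11, Trim17, a ubiquitin ligase gene with up to 7 exons, shared its start and its locus identifier with Hist3h2a, so reads from the shared exon would belong to either.

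The regions between the annotated starts were searched for promoter motifs. They need not hold the whole of both promoters. In Hist1h2ak, Hist1h2ah and Hist1h2ad, TATAAA lay 16, 15 and 30 bases past the annotated start. The regions of 3 pairs are printed on the + strand of mm9, with matches to CCAAT, ATTTGCAT (the octamer bound by Oct-1, known from H2B promoters), TATAAA and AAACACA (known from H1 promoters) in capitals, on either strand, so that CCAAT also appears as ATTGG. The first is the shortest spacing and has CCAAT alone, the next has an octamer and TATAAA, and the third is the pair on chromosome 11.
Hist1h2bq and Hist1h2ao (chr13:21902069-21902235): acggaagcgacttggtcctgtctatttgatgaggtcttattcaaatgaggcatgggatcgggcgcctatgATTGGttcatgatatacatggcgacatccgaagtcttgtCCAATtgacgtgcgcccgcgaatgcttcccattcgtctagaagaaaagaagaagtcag
Hist1h2ae and Hist1h2bg (chr13:23663090-23663264): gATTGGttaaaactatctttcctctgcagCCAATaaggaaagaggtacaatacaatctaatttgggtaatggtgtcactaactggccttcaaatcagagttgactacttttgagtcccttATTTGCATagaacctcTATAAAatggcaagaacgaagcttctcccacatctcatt
Hist3h2bb-ps and Hist3h2a (chr11:58768015-58768186): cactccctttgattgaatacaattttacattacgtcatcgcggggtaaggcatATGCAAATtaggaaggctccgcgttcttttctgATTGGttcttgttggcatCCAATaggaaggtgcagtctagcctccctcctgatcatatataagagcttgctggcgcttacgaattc

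CCAAT occurred in all 14 regions, 44 times in total. Among 164 other coding pairs with spacings in the range of the H2A and H2B pairs, 54.9% had it. The octamer occurred in 6 of the 13 H2A and H2B regions, 1 match in each, and in none of the 164 other pairs (0%). All 6 octamers read towards the H2B gene, whichever strand that gene was on. In 1 of these regions the H2B gene is the pseudogene Hist3h2bb-ps. TATAAA was in 5 of the 13, against 1.83% of the other pairs. AAACACA was only in the region of Hist1h2ba and Hist1h2aa, which was also the only region with all 4 motifs. Matches past an annotated start were not counted here. The histone regions had a median GC content of 42.5%, where that of the 164 other regions was 60%.

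**Figure D4:**
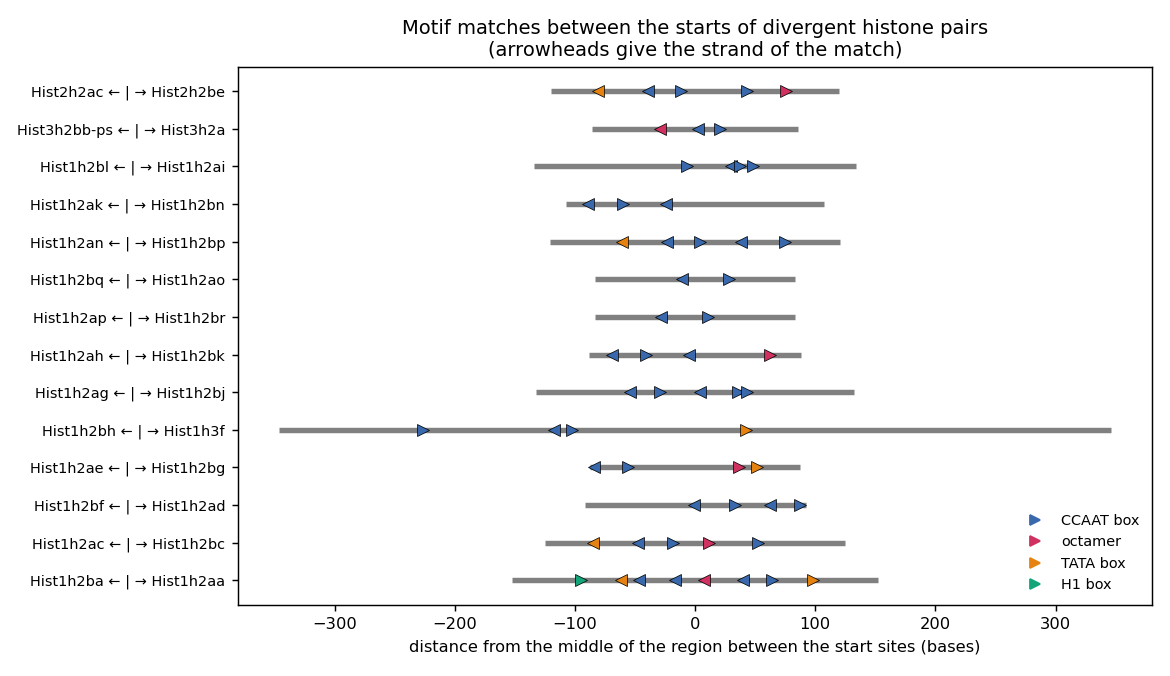
Each gray bar is the region between the annotated starts of a divergent histone pair, named at the left with the − strand gene first. The x axis gives the distance in bases from the middle of the region. Arrowheads mark motif matches and point to the right on the + strand. CCAAT matches (blue) are in every region and octamers (red) in 6 of them.

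Over all promoters, taken as 250 bases before to 50 after the start of each gene, the classes differed in their motifs. CCAAT was in 56 of 67 histone promoters, against 37.9% of coding genes, and in 3 of the 12 H4 promoters. TATAAA was in 37, against 13.6%. It lay on the gene's own strand in the 60 bases before the start in 15 genes, against 3.52%. That count depends on where the models start. Hist2h2ab, Hist1h2an and Hist1h4k, whose models begin at the start codon, had TATAAA 61, 63 and 64 bases before it. In Hist1h2ah, Hist1h2ak, Hist1h4a and Hist1h2ad it lay 15 to 30 bases past the annotated start. The octamer was in 16, against 2.36%: 9 of 19 H2B and 7 of 18 H2A promoters, and none of H1, H3 or H4. AAACACA was in 10, against 6.59%, among them 5 of the 6 H1 promoters. Windows of paired genes overlap, so these counts are not independent of each other.

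An inverted repeat lies at the end of the chromosome 13 run of 19 genes and reaches past its last gene. The stretch chr13:21893085-21904097 matched the opposite strand of chr13:21923583-21934595 over 11013 bases with 3 differences, including an identical block of 10523 bases, with 19485 bases between the arms. The arms hold Hist1h2bq, Hist1h2ao and Hist1h4m on one side and Hist1h2br, Hist1h2ap and Hist1h4n on the other. The regions between the starts of their divergent pairs, Hist1h2bq with Hist1h2ao and Hist1h2ap with Hist1h2br, had 0 differing bases. On chromosome 3, Hist2h2aa2 lay in a similar repeat of 907 bases with 2 differences, the other arm of which (chr3:96049196-96050102) overlaps the start of the Hist2h3c1 model.

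The coding sequences were compared within each class, with 1 taken per gene. It was that of a single-exon transcript where the gene had such a transcript, and otherwise the shortest. The longer coding sequences of spliced Hist1h2bp, Hist1h2bq and Hist1h2br transcripts, 402 to 414 bases, were thus left out of the counts. The 12 H4 genes had 11 distinct coding sequences and encoded 1 protein of 103 residues. The 11 coding H3 genes had 11 distinct sequences and 2 proteins, 7 genes sharing 1 of them. Among the 17 coding H2A genes there were 16 distinct sequences and 9 proteins, and 9 genes shared the commonest. The 18 coding H2B genes gave 17 sequences and 11 proteins, with 6 genes sharing the commonest, and the 6 H1 genes all differed. Between H4 genes the coding sequences were 85.8% to 100% identical, with a median of 94.7%, and between H3 genes 93.6% to 99.8%. Pairs of equal length were 77.7% to 100% identical among H2A genes, with a median of 97.3%, and 85.2% to 100% among H2B genes, with a median of 97.6%. No H1 genes had coding sequences of equal length, so none were compared. Identical coding sequences were found for Hist1h2ao and Hist1h2ap, for Hist1h2bq and Hist1h2br and for Hist1h4m and Hist1h4n, the genes of the inverted repeat.

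Reads of the study were 100 bases long, and a read from repeated sequence cannot be placed at 1 gene by its sequence alone. Per the methods, the authors ran Cufflinks with its correction for reads that align to multiple places. Of 48061 exonic windows of 100 bases in the histone genes, 67.1% occurred at a single place in the genome, both strands searched without mismatches. Per gene, the median share was 62.9%, and the median was 100% over 1111 other coding genes (every 20th). Under 50% of the windows were unique in 23 of the 67 histone genes, against 5.94% of the compared genes. No window was unique in 5 histone genes, against 1.71%: Hist1h2bq, Hist1h2br, Hist1h2ao, Hist1h2ap and Hist2h2aa2. All windows were unique in 9, against 74.2%.

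H1 genes had shares of 91.5% to 100%. H2A genes had the lowest median, 44.8%, and ran from 0% to 100%, the latter in Hist3h2a and Hist1h2aa. A unique window marks 1 place, which can belong to more than 1 gene. Exons of Hist3h2a overlap those of Trim17 on the same strand, and exons of Hist1h2be those of Gm11398. H2B genes had a median of 61.7%, with Hist2h2be on chromosome 3 and Hist2h2bb at 100%. H3 genes ran from 22.9% in Hist2h3b to 79.6% in Hist1h3d, and H4 genes from 10.9% in Hist1h4n to 100% in Hist2h4 and Hist1h4d. Single windows occurred up to 16 times in H2A genes, 10 times in H2B genes, 9 times in H4 genes and 3 times in H1 genes. In H3 genes the highest count was also 16, in Hist2h3c1, whose model overlaps the position of the H2A gene Hist2h2aa1. Hist2h3c1 was counted as an H3 gene throughout. Every one of the 1927 windows of Hist1h2bq, including those of its spliced last exon, was also present in Hist1h2br. Expression of these genes was not measured in the models, so the part that shared windows play in any value of theirs was not tested.

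**Figure D5:**
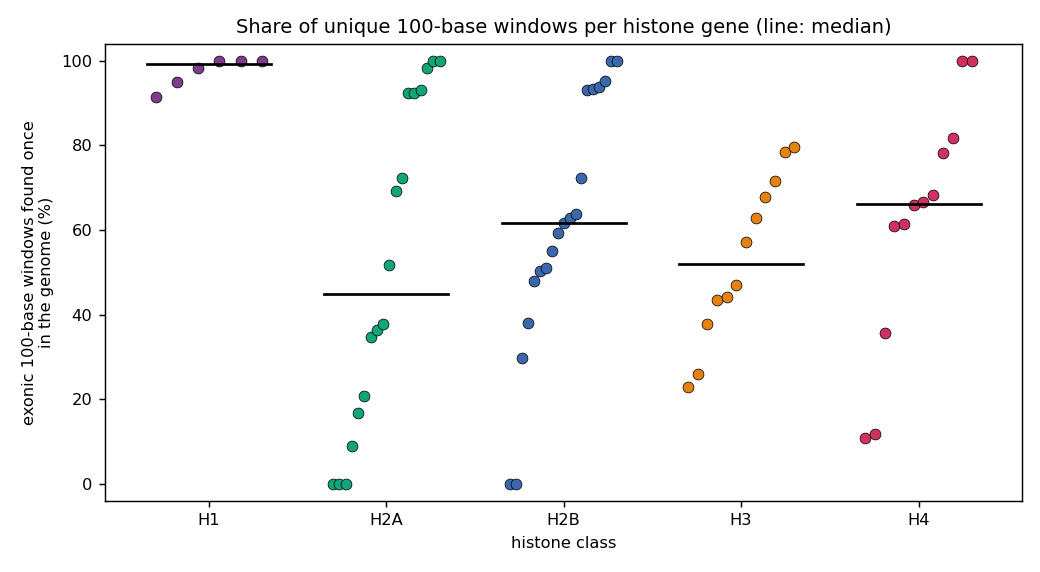
Each point is a histone gene, by class on the x axis, and the y axis gives the percentage of its exonic 100-base windows that occur at 1 place in the genome; lines are class medians. All H1 genes lie at 91.5% or above, and the 5 genes at 0 are H2A and H2B genes.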

How the data were processed

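NAc tissue was pooled by group and RNA was selected on poly(T) beads before Illumina sequencing. Per the methods, the authors aligned the reads with TopHat to the Ensembl NCBIM37 release 62 genes and compared groups with the Cufflinks package, and the submitters' processing notes also name CASAVA and Cuffdiff. No version of these tools was stated. The deposited file holds the coordinates of 624665 exons of 87740 transcripts on mm9, with no value per sample. The 74 histone transcripts have the same exons in GENCODE M1, from which stop codons and coding sequences were taken, and 97.2% of all transcripts do. Sequences were read from the NCBIM37 (mm9) genome.

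Genes were counted as a name, locus and strand. Coding genes carried a protein identifier and served as the background. Windows of 100 bases were matched exactly over the genome with a rolling hash. The genes named were the multi-exon genes, genes of divergent pairs, genes outside the main run, the longest and shortest, and those without a stem-loop. Also named were those with the extreme shares of unique windows in each class. A list of 15 replication-independent histone genes and a list of 12 factors of histone gene transcription and mRNA processing were used as well. Other genes that are named, among them those outside the list with a stem-loop and those with renamed or long models, were chosen after their values were seen. Members and lists were chosen with earlier results of these data known. Python 3.11.15, NumPy 2.4.6, numba 0.67.0, pysam 0.24.0 and matplotlib 3.10.9 were used, and the searches were tested on simulated data, with 8 of 8 checks recovered.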

Additional observations from a re-analysis of the deposited data

How the results depend on the processing

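No paired analysis was possible because the deposited models hold no value per sample. All counts describe 1 set of models, so no replicate, depth or treatment enters them. The search for sites within 100 bases after a stop codon, which gave 59 histone genes against 48 near transcript ends, was chosen after seeing the data. Of 28 alternatives, 24 stayed within 1.5 times the reported count. With all genes in place of coding genes, 32.5% of the background had 1 exon, and 32.7% with loci, against 12.9% reported. With AATAAA alone, 10 histone genes had a poly(A) signal in place of 16. With windows of 36 bases, 36 genes had under 50% unique windows in place of 23. Divergent pairs numbered 13 at up to 500 bases and 21 at up to 2000.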
